A study of Danio rerio with 9 samples.

Results

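Fast muscle and energy-buffer genes were examined in the zebrafish inner ear after acoustic trauma. The genes were chosen by name: the set holds every gene probe whose name marks a fast-fibre contractile, calcium-handling or muscle energy gene, or whose description mentions skeletal muscle or creatine kinase. Of the 65 probes that matched, 3 with slow-muscle names were left out, so that 62 of the 21495 probes on the array remained, 41 found by name and 21 by description only. They carry 41 of the 18561 distinct names on the array, and 43 of the probes could be matched to a RefSeq gene symbol. The rule read names and descriptions and no measured value, but it was chosen with earlier results of these data known.

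RNA came from whole inner ears (saccule, lagena, utricle and semicircular canals) of adult zebrafish collected 2 days after exposure to a loud low-frequency tone (Day 2), 4 days after it (Day 4), or after the same stay in the exposure chamber with the sound off (Control). Each group was 1 RNA pool from 18 to 20 fish, hybridised to 3 single-colour arrays, 9 arrays in all. Each P-value therefore sets a difference against the spread between hybridizations of the same pool, and how far fish of a group differ is unknown. The methods name the auditory nerve as the one neighbouring tissue of which some may have stayed on the ears. Whole-ear RNA cannot tell fewer cells of a type from less RNA per cell.

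In a fast muscle fibre, myosin in the thick filament pulls on actin in the thin filament, and the thin filaments are anchored at the Z disc. Calcium released from the sarcoplasmic reticulum binds troponin on the thin filament and starts contraction, and a calcium pump returns it to end the twitch. Creatine kinases move phosphate between phosphocreatine and ADP, so that ATP can be restored faster than glycolysis or mitochondria make it. Muscle-type creatine kinase sits in the cytosol of muscle, the brain type in the cytosol of many other cells, and the mitochondrial types between the mitochondrial membranes.

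Levels are given as log2 intensity minus the log2 median of the same array, so that 0 is the middle spot of an array, and a fold change is a difference of such levels fitted with limma and adjusted for the slide. A probe was significantly regulated at a fold change of at least 1.4 and an adjusted P-value (limma, Benjamini-Hochberg over the 21495 probes) no higher than 0.05. Of the 62 probes, 23 (37.1%) were well above background on all 9 arrays, against 8024 (37.3%) of all probes. A further 26 (41.9%) were above background on no array, against 43.8% of all probes. All 3 Day 2 arrays measured 28 members, all 3 Day 4 arrays 23 and all 3 Control arrays 28. The share of spots well above background ran between 39.5% and 56.9% by array and was lowest on replicate 2 of Day 4.

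None of the 62 probes was significantly up-regulated in any comparison, and 4 were significantly down-regulated, all of them in Day 4:Control. These were muscle creatine kinase ckm, an actin probe named acta1 (RefSeq actc1b), the sarcoplasmic reticulum calcium pump atp2a1 and the Z-disc protein gene ldb3l, with log2 fold changes of -1.69 to -1.35. They are 6.45% of the 62 members, beside 0.181% of all probes that were significantly down-regulated in Day 4:Control and 0.0977% that were up-regulated. In Day 2:Control 0 members passed in either direction, where 0.186% of all probes were down-regulated and 0.549% up-regulated. In Day 4:Day 2 0 members passed, against 0.0279% of all probes lower and 0.0372% higher.

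The calls depended on the arrays that entered the fit. All 4 were lost when any 1 of 8 arrays was left out, which includes each Control array, each Day 2 array and replicates 1 and 3 of Day 4. Lower calls over all probes in Day 4:Control fell in those 8 fits too, from 39 to between 3 and 19. The loss was thus not particular to these 4 probes. Without replicate 2 of Day 4, 5 members were down-regulated, 3 of them among the 4. Without that array 4 members were also down-regulated in Day 2:Control (acta1, actn3, atp2a1 and pgam2). Calls over all probes rose in that fit too. In Day 2:Control lower calls went from 40 to 142 and higher calls from 118 to 437. In Day 4:Control they went from 39 to 51 and from 21 to 29. With only the 6 arrays of the comparison in the fit, 0 members passed in Day 4:Control, and 16 of all probes were called lower. The direction held throughout. For these probes all Day 4 arrays lay below all Control arrays, so leaving out 1 array could hardly have turned it. Leaving out 1 Control or Day 4 array at a time kept the log2 fold change of ckm between -1.54 and -1.46. That of acta1 stayed between -1.81 and -1.56, that of atp2a1 between -1.58 and -1.39 and that of ldb3l between -1.41 and -1.24.

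At the weaker rule of an unadjusted P-value of at most 0.05 with a fold change of at least 1.4, 7 members (11.3%) were lower at Day 2 than in Control, where the same rule took 1.71% of all probes. At Day 4 it took 14 members (22.6%) lower than Control, against 1.64% of all probes, and 13 (21.0%) lower than Day 2, against 2.47%. In the higher direction it took 1 member in Day 4:Control and 0 in the other comparisons, while it took 3.7% to 5.34% of all probes. The 3 arrays of Day 2 all lay below the 3 Control arrays for 16 members (25.8%, against 8.8% of all probes), those of Day 4 below Control for 15 (24.2%, against 3.52%) and those of Day 4 below Day 2 for 15 (24.2%, against 5.97%). These shares count probes and not separate genes. The 5 probes of troponin T gene tnnt3b measured on all arrays are among the 14, the 13 and both sets of 15. So are mylz3 and atp2a1l A_15_P117269, which were above background on no Day 4 array. The 7 and the 16 of Day 2:Control also hold probes near background. Both sets include myhz2 A_15_P103788, above background on no array, and ldb3l A_15_P103468, above background on no Day 2 array. The 16 further include myhz2 A_15_P120396 and ldb3l A_15_P108854, both above background on no array. In the other direction the arrays of Day 2 all lay above Control for 2 members (3.23%, against 15.6%), those of Day 4 above Control for 2 (3.23%, against 15.6%) and those of Day 4 above Day 2 for 7 (11.3%, against 12.8%). Over all 62 probes the median log2 fold change was -0.02 for Day 2 over Control (0.12 for all probes), 0.04 for Day 4 over Control (0.29) and 0.17 for Day 4 over Day 2 (0.24). Among members measured on every array of both groups, the median was -0.07 for Day 2 over Control (28 probes, 21 below 0), -0.44 for Day 4 over Control (23 probes, 17 below 0) and -0.31 for Day 4 over Day 2 (23 probes, 15 below 0). All probes measured in the same way had medians of 0.04, 0.12 and 0.06. These medians describe the set and were not tested. The 23 probes include the same 5 of tnnt3b.

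**Figure D1:**
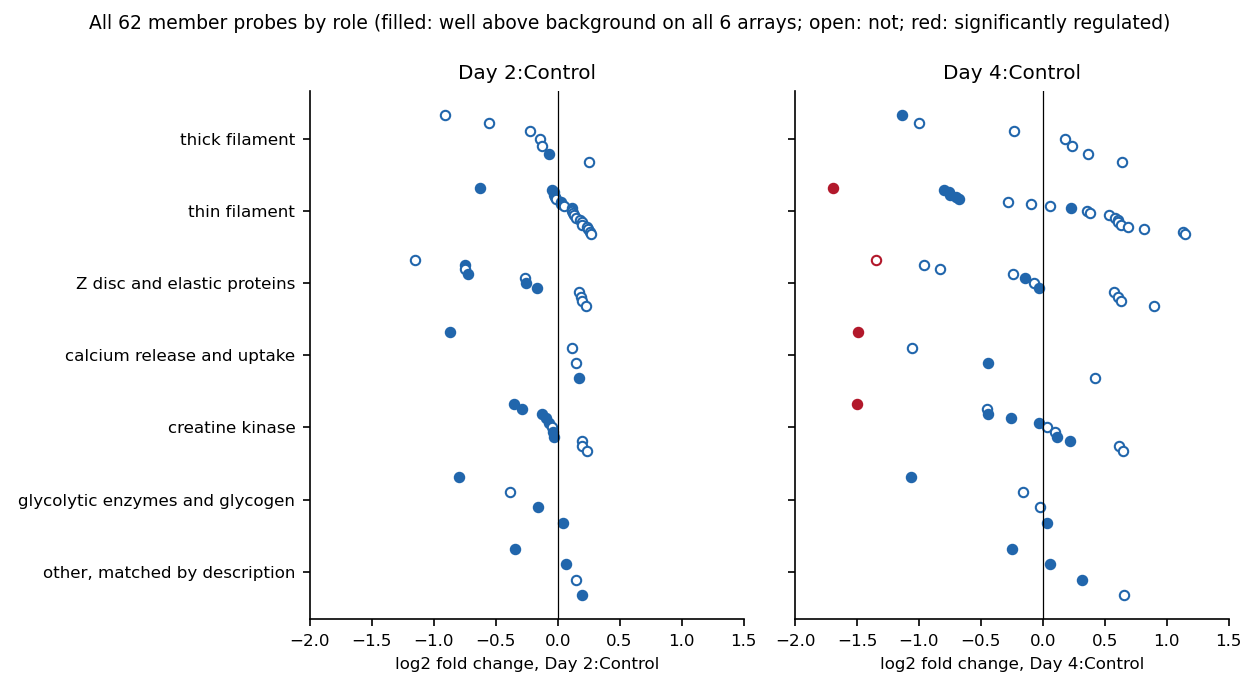
The log2 fold change of each of the 62 probes in Day 2:Control (left) and Day 4:Control (right), grouped by role. Filled points were well above background on all 6 arrays of the comparison, open points were not, and red marks the 4 significantly down-regulated probes; in Day 4:Control the filled points reach -1.69 and 17 of 23 lie below 0.

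The thin filament gave the lowest value of the set. The probe A_15_P119599, annotated to acta1 (skeletal alpha actin, matched in RefSeq to actc1b) at chr19:42886850-42886909 of the danRer2 build, read 2.99, 2.94 and 2.97 on the Day 2 arrays and 1.73, 2.22 and 1.90 on the Day 4 arrays, against 3.61, 3.53 and 3.65 on the Control arrays. The 3 groups did not overlap, with Day 4 lowest and Day 2 between. Its log2 fold change was -0.63 ± 0.15 in Day 2:Control (SE; adjusted P = 0.192), not past the test, and -1.69 ± 0.16 in Day 4:Control (3.23-fold; adjusted P = 0.0281). Arrays that shared a scan time were taken as a slide, and Day 4 minus Control was -1.88 on slide 1 (1 Day 4 and 1 Control array) and -1.58 on slide 3 (2 Day 4 arrays and 1 Control array).

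Another acta1 probe gave a different picture. A_15_P112557 starts 265 bases from A_15_P119599 and carries the same name, and it read 6.91, 6.80 and 6.85 at Day 2 and 7.09, 7.11 and 6.74 at Day 4, against 6.74, 6.70 and 6.78 in Control. Its Day 2 arrays lay just above Control (0.11 ± 0.14, adjusted P = 0.952). Its Day 4 and Control arrays overlapped, and its log2 fold change in Day 4:Control was 0.23 ± 0.15 (adjusted P = 0.515). The actin call thus holds for 1 of the acta1 probes, and which transcripts each probe binds was not tested. One more probe of the name, A_15_P101217, was above background on no array. By its coordinates it lies between the other acta1 probes and on the opposite strand.

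Fast troponin T, which holds troponin on tropomyosin, was represented by 7 tnnt3b probes, and 5 of them were measured on all 9 arrays. The log2 fold changes of these 5 were -0.05 to 0.03 in Day 2:Control and -0.80 to -0.68 in Day 4:Control, where all 3 Day 4 arrays lay below all 3 Control arrays for each probe, yet none passed the test. The one furthest down, A_15_P118218, read 3.51, 3.43 and 3.42 at Day 2 and 2.64, 2.78 and 2.64 at Day 4, against 3.61, 3.45 and 3.39 in Control. Day 2 overlapped Control on it and Day 4 stood apart from both, with a log2 fold change of -0.80 ± 0.13 in Day 4:Control (adjusted P = 0.148) and -0.77 ± 0.13 in Day 4:Day 2 (adjusted P = 0.188). The 5 probes report 1 gene and are not 5 independent observations. Over the 21 thin filament probes, 7 were measured throughout Day 4 and Control, 6 of them below 0, and 11 were above background on no array. Those 11 include both tnnt3a probes and Tnni2, the fast inhibitory subunit of troponin.

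Of the thick filament, only the regulatory light chain gene mylz2 (RefSeq mylpfa) was measured on all arrays. It read 5.29, 5.02 and 5.07 at Day 2 and 3.95, 4.25 and 4.13 at Day 4, against 5.32, 5.08 and 5.18 in Control. Day 2 overlapped Control, and Day 4 lay below both groups without overlap. The log2 fold change was -0.07 ± 0.14 at Day 2 against Control (adjusted P = 0.952), -1.14 ± 0.15 at Day 4 against Control (adjusted P = 0.0793) and -1.07 ± 0.15 at Day 4 against Day 2 (adjusted P = 0.126), none of them past the test. Among the 7 thick filament probes 5 were above background on no array, and these hold both probes each of the fast myosin heavy chains myhz1 and myhz2. A change in heavy chain, the main protein of the thick filament, could therefore not be measured.

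**Figure D2:**
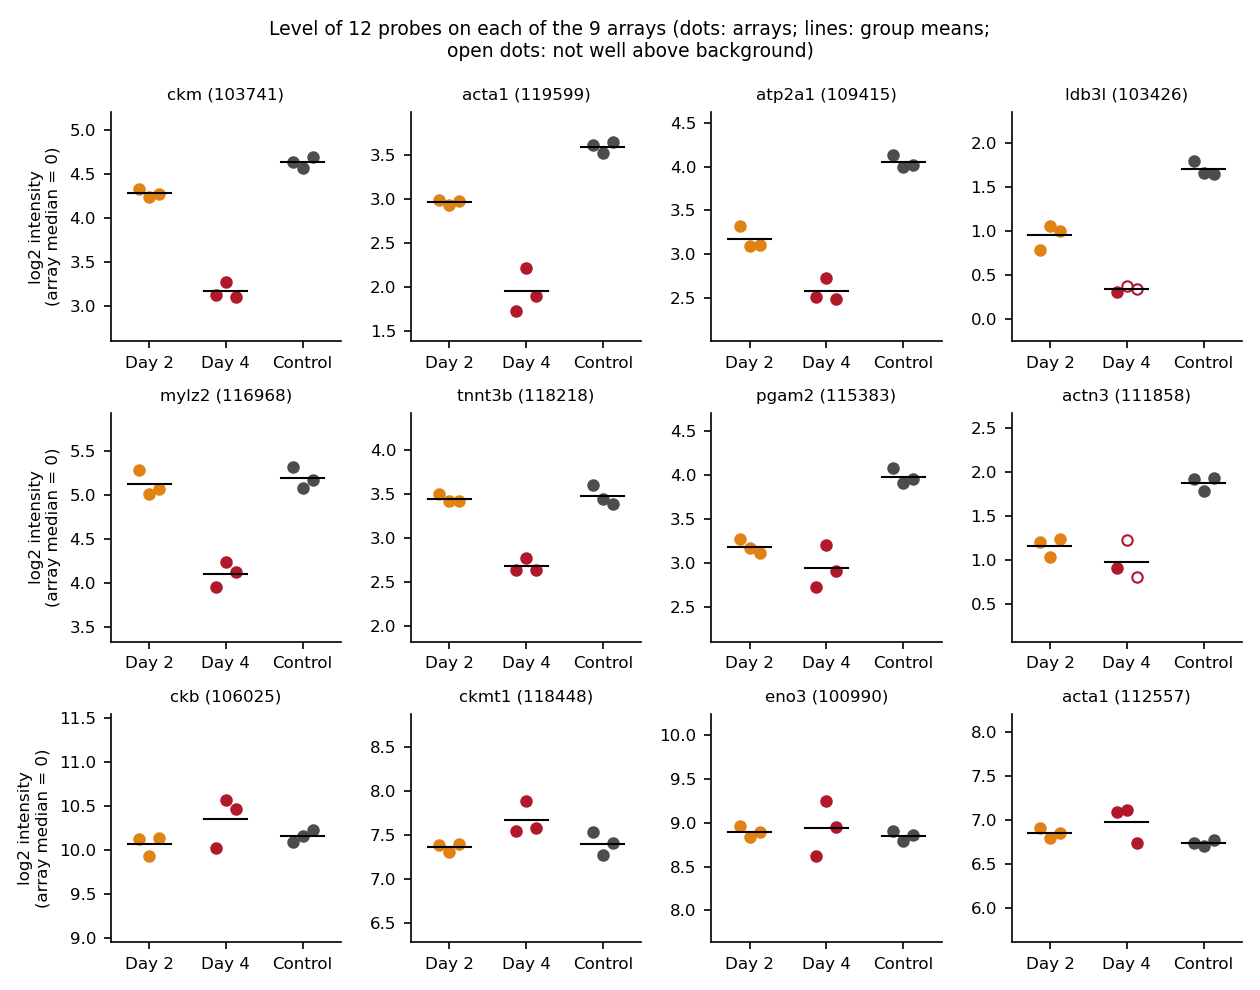
Level of 12 fast muscle and energy-buffer probes (log2 intensity, array median 0) on each array of Day 2, Day 4 and Control, with a line at each group mean and open dots where the probe was not well above background. The number beside each name is the end of the probe's identifier. The ckm probe at Day 4 lies between 3.11 and 3.27, below the 4.24 to 4.33 of Day 2 and the 4.58 to 4.70 of Control. The brain-type ckb probe drawn, A_15_P106025, overlaps between the groups. The other measured ckb probe, A_15_P105046, is not drawn, and its Day 4 arrays all lay below its Control arrays.

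Of the calcium uptake probes, 1 was significantly regulated. The probe of atp2a1, the fast-fibre pump that returns calcium to the sarcoplasmic reticulum (A_15_P109415, chr3:16170972-16171031), read 3.33, 3.10 and 3.11 at Day 2 and 2.52, 2.73 and 2.497 at Day 4, against 4.13, 3.99 and 4.02 in Control. All 3 groups were separate. The log2 fold change was -0.87 ± 0.13 in Day 2:Control (adjusted P = 0.0706) and -1.49 ± 0.14 in Day 4:Control (2.81-fold; adjusted P = 0.0292). The similar gene atp2a1l (A_15_P104804) read 3.16, 3.11 and 3.25 at Day 2 and 2.31, 2.63 and 2.98 at Day 4, against 3.15, 2.85 and 3.00 in Control. Its log2 fold change was 0.17 ± 0.18 in Day 2:Control (adjusted P = 0.952) and -0.45 ± 0.20 in Day 4:Control (adjusted P = 0.515). Its Day 4 and Control arrays overlapped. The second atp2a1l probe was measured on no Day 4 array. The calcium channel subunit of the excitation-contraction coupling complex (LOC405791) was above background on no array.

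At the Z disc, ldb3l (RefSeq ldb3b, a PDZ and LIM domain protein that binds alpha-actinin) was close to background at Day 4. The probe A_15_P103426 (chr12:26195799-26195858) read 0.79, 1.06 and 1.00 at Day 2 and 0.30, 0.37 and 0.34 at Day 4, against 1.79, 1.66 and 1.64 in Control. Only 1 of the 3 Day 4 arrays was well above background, while all Day 2 and Control arrays were. The fitted log2 fold change in Day 4:Control was -1.35 ± 0.14 (adjusted P = 0.037), and against the lowest measurable signal of each Day 4 array the gene was at least 1.81-fold lower. With normexp and quantile normalization the log2 fold change was -0.68 and still passed. In Day 2:Control it was -0.75 ± 0.13 (adjusted P = 0.0906). This is 1 of 3 ldb3l probes. A_15_P103468 was well above background on 2 Control arrays and on no Day 2 or Day 4 array, and A_15_P108854 on no array. The ldb3l call thus rests on 1 probe. Alpha-actinin actn3 (RefSeq actn3a), which crosslinks actin at the Z disc of fast fibres, read 1.21, 1.03 and 1.23 at Day 2 and 0.90, 1.23 and 0.81 at Day 4, against 1.92, 1.78 and 1.93 in Control. Both exposed groups lay below Control, with -0.72 ± 0.15 at Day 2 (adjusted P = 0.129) and an adjusted P of 0.148 at Day 4, where 1 of 3 arrays was well above background and the bound was at least 1.7-fold lower. Desmin (desm), the intermediate filament that links neighbouring Z discs, differed from Control by -0.25 at Day 2 and -0.15 at Day 4, and ldb3 (A_15_P107149) by -0.16 at Day 2 and -0.03 at Day 4. The titin probes ttn and ttnl, for the elastic protein of the sarcomere, were above background on no array.

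Among the 11 creatine kinase probes, 1 was significantly regulated. The ckm probe (muscle-type creatine kinase, RefSeq ckma; A_15_P103741, chr5:39137310-39137369) read 4.33, 4.24 and 4.28 at Day 2 and 3.13, 3.27 and 3.11 at Day 4, against 4.64, 4.58 and 4.70 in Control. The groups did not overlap, and Day 4 was far from both others. The log2 fold change was -0.35 ± 0.12 at Day 2 against Control (adjusted P = 0.373), -1.50 ± 0.13 at Day 4 against Control (2.82-fold; adjusted P = 0.0188) and -1.14 ± 0.13 at Day 4 against Day 2 (adjusted P = 0.0783). It was the lowest adjusted P-value of any member, and Day 4 minus Control came to -1.51 on both of these slides. A second probe matched to RefSeq ckma, wu:fa28d05, was above background on no array.

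The other creatine kinases were not significantly regulated. Brain-type ckb (A_15_P106025, chr20:24116522-24116581) read 10.13, 9.93 and 10.13 at Day 2 and 10.02, 10.57 and 10.46 at Day 4, against 10.09, 10.16 and 10.23 in Control. The groups overlapped, and the log2 fold change was -0.10 ± 0.15 in Day 2:Control (adjusted P = 0.952) and 0.12 ± 0.16 in Day 4:Control (adjusted P = 0.669). The other ckb probe, A_15_P105046, averaged 3.19 ± 0.20 at Day 4 against 3.62 ± 0.08 in Control (SD, n = 3 arrays each), a log2 fold change of -0.44 ± 0.15 (limma, adjusted P = 0.426) with all Day 4 arrays below Control. Neither ckb probe passed the test, and with normexp and quantile normalization A_15_P106025 turned to -0.095 in Day 4:Control.

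Mitochondrial ckmt1 likewise gave a pair of values on either side of 0 in Day 4:Control. A_15_P118448 read 7.39, 7.31 and 7.39 at Day 2 and 7.55, 7.88 and 7.58 at Day 4, against 7.53, 7.27 and 7.40 in Control, with 0.22 ± 0.15 in Day 4:Control (adjusted P = 0.515) and 0.26 ± 0.15 in Day 4:Day 2 (adjusted P = 0.698). All Day 4 arrays lay above the others by a margin smaller than the spread between Control arrays. A_15_P107481 gave -0.26 ± 0.15 in Day 4:Control (adjusted P = 0.515). The expressed sequence TC291107, described as similar to a creatine kinase, gave -0.29 ± 0.15 in Day 2:Control (adjusted P = 0.76) and -0.03 ± 0.17 in Day 4:Control (adjusted P = 0.909). In Day 4:Day 2 it gave 0.26 ± 0.17 (adjusted P = 0.698). The probe ns:zf-e529 gave -0.03 ± 0.26 in Day 2:Control (adjusted P = 0.98), and it read 0.91, -0.12 and 0.33 on the Day 4 arrays, of which 1 was well above background, against 0.81, 0.87 and 0.97 in Control (adjusted P = 0.515). TC279614 was above background on no array, and TC291102 and ENSDART00000032481 were measured throughout no group.

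**Figure D3:**
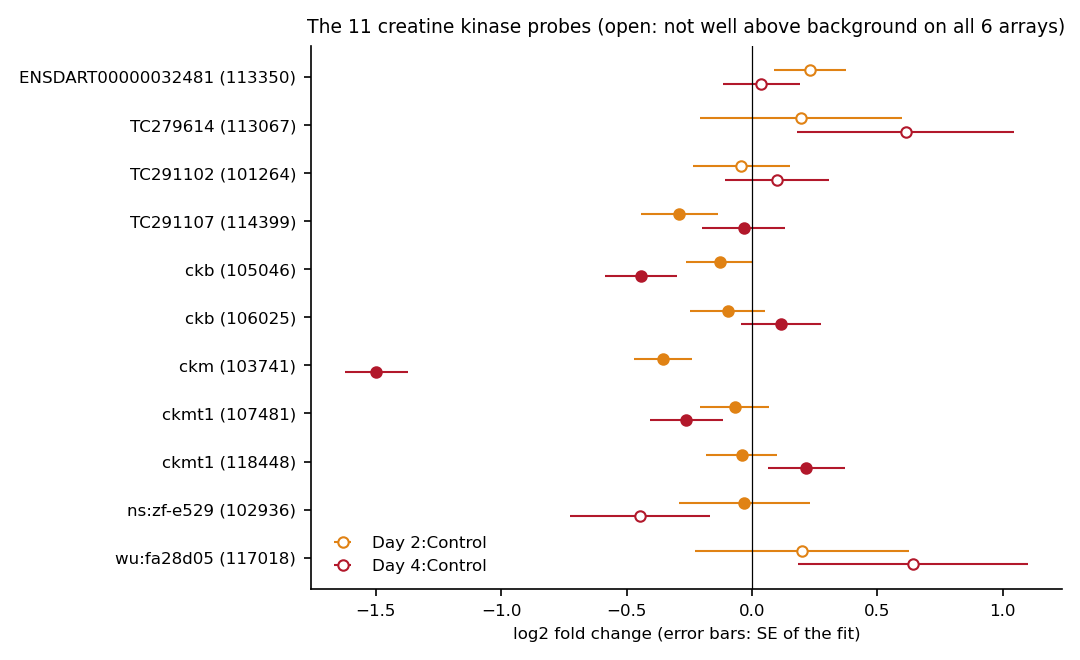
Log2 fold change of the 11 creatine kinase probes in Day 2:Control and Day 4:Control, with bars of 1 SE of the fit and open points for probes not well above background on all 6 arrays. The ckm probe stands at -1.50 in Day 4:Control, and the other 5 probes measured in both groups lie between -0.44 and 0.22.

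The glycolytic genes of muscle held no called probe. The probe of pgam2, muscle phosphoglycerate mutase, read 3.28, 3.17 and 3.11 at Day 2 and 2.72, 3.20 and 2.91 at Day 4, against 4.08, 3.91 and 3.96 in Control. Both exposed groups were below Control and overlapped each other, with -0.80 ± 0.17 in Day 2:Control (adjusted P = 0.129) and -1.07 ± 0.18 in Day 4:Control (adjusted P = 0.148). The probe of eno3, the enolase of muscle in mammals, gave 0.05 ± 0.17 and 0.03 ± 0.18 in the same comparisons. On a list of 25 probes for other glycolytic enzymes, 0 passed in any comparison, and the 20 measured in both groups lay between -0.15 and 0.72 in Day 4:Control.

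Of the probes matched by their description only, TC290157 had the highest fold change of a measured member against Control, 0.20 ± 0.12 in Day 2:Control (adjusted P = 0.853) and 0.32 ± 0.13 in Day 4:Control (adjusted P = 0.515). TC273159 had the highest in Day 4:Day 2, 0.40 ± 0.12 (adjusted P = 0.403). None of these passed the test. By role, then, the called probes were 1 each in the thin filament, the Z disc, calcium uptake and creatine kinase, and 0 in the thick filament and glycolysis.

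The time course differed between members as values, although no member passed the direct test of Day 4 against Day 2. The probes of atp2a1, pgam2, ldb3l, actn3 and acta1 (A_15_P119599) were between 0.63 and 0.87 log2 units lower at Day 2 with the arrays of the groups apart. For mylz2 and the 5 measured tnnt3b probes, the Day 2 difference was between -0.07 and 0.03, and almost all of the distance to Day 4 lay after Day 2. Among probes measured in both groups, the lowest values in Day 4:Day 2 were ckm (-1.14), mylz2 (-1.07) and acta1 (-1.07, adjusted P = 0.136). These comparisons share their arrays and are not independent of each other.

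Many zebrafish genes carry a clone name on this array, and 36 further probes matched the same name patterns through their RefSeq symbol. They were added after the values of the named probes had been seen. In Day 4:Control 5 of the 36 (13.9%, against 0.181% of all probes) were significantly down-regulated and 0 up-regulated, and 0 passed in the other comparisons. The 5 were a second muscle creatine kinase (ckmb; zgc:64204), both alpha-actinin probes of actn3b (zgc:77243), the essential light chain myl1 (zgc:77231) and tropomyosin tpm2 (zgc:86810). The called ckmb probe, A_15_P102592, read 3.65, 3.41 and 3.49 at Day 2 and 2.72, 2.60 and 2.42 at Day 4, against 3.93, 3.86 and 3.87 in Control. Its groups did not overlap, and its log2 fold change was -0.37 ± 0.12 in Day 2:Control (adjusted P = 0.364) and -1.32 ± 0.13 in Day 4:Control (adjusted P = 0.0299), close to those of ckm. The other ckmb probes, A_15_P105150 and A_15_P110707, were above background on at most 1 array, so the ckmb call rests on 1 probe. The probe of tpm2 read 5.89, 5.61 and 5.77 at Day 2 and 4.86, 5.32 and 5.07 at Day 4, against 7.01, 6.53 and 6.64 in Control (-1.73 in Day 4:Control, adjusted P = 0.049), again with the groups apart. The probes of myl1 (A_15_P107336) and of actn3b A_15_P111275 were well above background on 1 of 3 Day 4 arrays, and the bounds were at least 1.86-fold and at least 1.91-fold lower than Control. The other myl1 probes, A_15_P100247 and A_15_P107255, were above background on no Day 4 array. They lay below Control at Day 4 without overlap and did not pass. Of the sarcomeric mitochondrial kinases, ckmt2a (zgc:56085) gave -0.81 ± 0.20 in Day 4:Control and did not pass (adjusted P = 0.284). The probe of ckmt2b (zgc:73059) gave -1.60 ± 0.38 in Day 2:Control with the groups apart (adjusted P = 0.189). In Day 4:Control it was at least 3.7-fold lower, with 1 of 3 Day 4 arrays well above background (adjusted P = 0.15). It did not pass in either comparison. The probe that matched RefSeq acta1a (hm:zeh0293), skeletal actin by its symbol, read 3.33, 3.07 and 3.43 at Day 2 and 2.65, 2.78 and 2.79 at Day 4, against 2.62, 2.61 and 2.81 in Control. Day 2 lay above both other groups without overlap, while Day 4 overlapped Control. Its log2 fold change was 0.60 ± 0.12 in Day 2:Control (adjusted P = 0.111) and -0.04 ± 0.12 in Day 4:Control (adjusted P = 0.862), neither past the test. With these probes, 9 of 98 were down-regulated in Day 4:Control. The adjusted P-values of the 5 added calls (limma) lay between 0.0276 and 0.0498, and both actn3b probes report 1 gene. How the 5 depend on the arrays in the fit was not examined. Over all probes, lower calls in Day 4:Control fell from 39 to as few as 3 when 1 array was left out.

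Other muscle and tissue lists were read beside these genes. Slow muscle names gave 4 probes, 2 of them above background on no array and 0 regulated, but with RefSeq symbols the slow list grew to 11 probes, of which 3 were down-regulated in Day 2:Control and again in Day 4:Control. These were tnnc1b (-1.83 at Day 2 and -1.61 at Day 4; zgc:86932), tpm3 (-1.73 and -2.44; zgc:77592) and the calcium pump atp2a2a (-2.34 and -1.96; zgc:55380), with adjusted P-values between 0.00392 and 0.0259. In both comparisons the paper reports a far larger fall for the slow myosin heavy chain gene smyhc1l. That gene is not among these 3, and the list may not cover every slow muscle gene. The summed linear level of the 11 slow probes was 153 to 164 on Day 2 arrays and 151 to 185 on Day 4 arrays, against 215 to 238 on Control arrays, where 1 is the array median. A second tpm3 probe on the list, A_15_P105082, differed by 0.13 at Day 2 and 0.08 at Day 4. Whether the slow and fast lists differed in time was not tested.

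Of 9 cardiac probes matched by name, all 9 were above background on no array. With RefSeq symbols the cardiac list held 11 probes, and 10 of them were above background on no array. The other, actcl (RefSeq actc1a), gave -0.37 in Day 2:Control (adjusted P = 0.37) and was at least 1.96-fold lower in Day 4:Control, with 2 of 3 Day 4 arrays above background (adjusted P = 0.0576). Members were left out of this list, which removed the 3 acta1 probes matched to RefSeq actc1b. Of those 3, 2 were measured on all 9 arrays. The list does not cover every cardiac gene. The gene zgc:66286 (RefSeq myl13), described on the array as atrial myosin light chain, was read beside it after its values were known, and all 4 of its probes were down-regulated in Day 2:Control and in Day 4:Control. Its probe A_15_P100749 read 0.82, 0.73 and 0.64 at Day 2 and -0.31, -0.17 and -0.03 at Day 4, against 5.61, 5.46 and 5.60 in Control. Control stood far above both exposed groups, with a log2 fold change of -4.83 ± 0.14 in Day 2:Control (adjusted P = 0.000335), and at Day 4, where 1 of 3 arrays was above background, the level was at least 30.1-fold lower than Control (adjusted P = 0.000272). What part this difference between the pools had in the fast muscle values was not tested.

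Parvalbumins are calcium buffers abundant in fast muscle. The paper also describes parvalbumin as a marker used for hair cells and for ganglion neurons of the inner ear. Of the 3 parvalbumin probes, 2 matched RefSeq pvalb7. The 3 gave -0.95 to -0.56 in Day 4:Control, and 0 passed. Their summed levels were 34.3 to 35.6 at Day 2 and 23.5 to 26.8 at Day 4, against 37.6 to 41.4 in Control. Which cells these values come from was not tested. Of 25 probes for myogenic regulators and satellite cells, 11 were above background on no array and 0 passed. The 7 membrane and neuromuscular junction probes, 16 probes for partners of phosphocreatine and adenylates and 7 for oxygen supply held 0 regulated genes, and muscle ubiquitin ligases had 0 probes. In Day 4:Control 8 of the myogenic probes were measured in both groups, between -0.33 and 1.06.

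Markers of other tissues that a dissected ear may hold were read in the same way. Of 12 cartilage and bone probes 4 were above background on no array and 1 was down-regulated in Day 4:Control, the cartilage matrix gene Matn1 (-1.60, adjusted P = 0.0141), and the summed level of the list was 575 to 671 at Day 2 and 480 to 564 at Day 4, against 549 to 596 in Control. The 7 of these probes that were measured in both groups lay between -0.74 and 1.00 in Day 2:Control (median 0.37). In Day 4:Control they lay between -1.60 and -0.11 (median -0.58), all 7 below 0. Of the 23 measured members, which include brain-type and mitochondrial creatine kinase probes, 17 lay below 0 there. Of 24 neuron and myelin probes, 3 were down-regulated in Day 2:Control, all for the glial filament gene gfap (-1.13 to -0.99), with summed levels of 2450 to 2710 at Day 2 and 2740 to 3590 at Day 4, against 2650 to 2820 in Control. The 10 hair cell and supporting cell probes, 9 blood probes and 13 skin probes held 0 regulated genes, and the 11 skin probes measured at Day 4 and in Control lay between -0.03 and 1.24 (median 0.33). The hair cell sum was 737 to 792 at Day 2 and 596 to 740 at Day 4, against 702 to 754 in Control. Whether the amount of muscle, cartilage, bone or other tissue in each pool had a part in the lower fast muscle values was not tested, and with 1 pool in each group the pool and the exposure cannot be told apart.

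**Figure D4:**
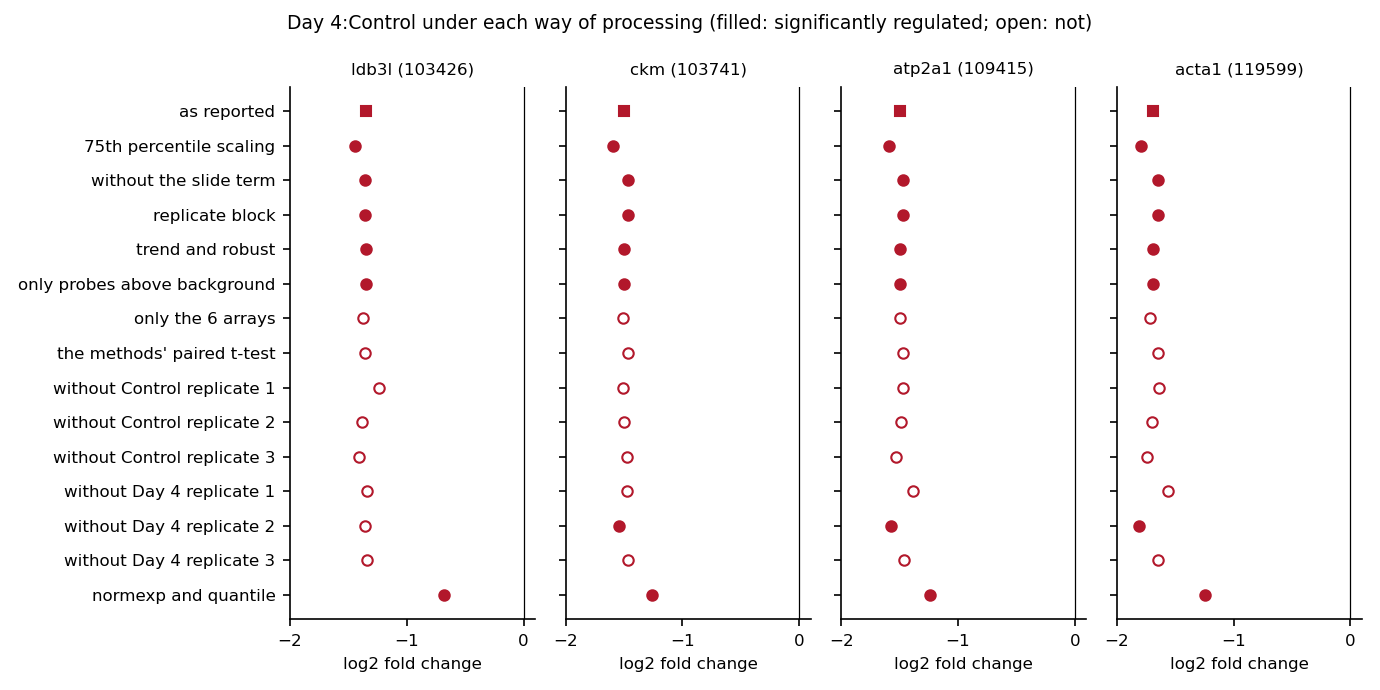
Log2 fold change in Day 4:Control of the 4 down-regulated members under each way of processing the arrays, filled where the probe was significantly regulated and open where it was not. Every value lies below 0, between -1.81 and -0.68, while the calls come and go with the arrays in the fit.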

How the data were processed

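Agilent single-colour arrays had been read for 9 hybridizations, 3 of each RNA pool. The authors deposited spot intensity values from Feature Extraction 9.5.1.1, corrected for background within the array and not scaled between arrays, with probe positions on build danRer2. Their fold changes and P-values for the 3 comparisons, and 6 columns of normalized values, were not used.

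Outlier spots were left out, log2 intensity was centred on the 50th percentile of its array, and the 2 spots of a probe were averaged. The model (group and slide, all 9 arrays) was fitted with limma 3.58.1 in R 4.3.3 and P-values were adjusted over 21495 probes by Benjamini and Hochberg. Arrays that shared a scan time were taken as a slide, 3 in all. This puts replicate 2 of Day 4 with the replicate 3 arrays, while by the methods every slide carried 1 replicate of each time point, so the slide term rests on scan times alone, and the closing section gives the fits without it and with the replicate numbers as a block. Gene names are those of the array, and RefSeq symbols were taken from the GRCz12tu annotation. They were matched by transcript identifier first, and where that gave no match by gene number, symbol or synonym. The number of arrays limits the precision. A probe not well above background on every array of a group has only a bound there.

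The members, their roles and the marker lists were chosen with earlier results of these data known. Statistics were given for members called in any comparison, for creatine kinase probes (those measured throughout no group are only named), and for the 3 largest rises and falls among measured members. They are not printed for every comparison of each probe. Alternatives were another percentile, normexp with quantile normalization, no slide, a replicate block, a variance trend, a filter, 6 arrays, the methods' paired t-test and each array left out. Same-numbered Day 2 and Control arrays deviated together (correlations 0.504, 0.267 and 0.542), and those with Day 4 did not (-0.061 to 0.122).

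Tables were handled with Python 3.11.15, pandas 2.3.3 and numpy 2.4.6, and plots drawn with matplotlib 3.10.9.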

Additional observations from a re-analysis of the deposited data

How the results depend on the processing

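No member was significantly up-regulated under any alternative, and no significantly regulated probe changed sign. Down-regulated members at Day 2 against Control, at Day 4 against Control and at Day 4 against Day 2, which numbered 0, 4 and 0, came to 5, 10 and 6 with arrays scaled to the 75th percentile, 4, 8 and 4 without the slide term, 6, 14 and 12 with a variance trend and robust estimation, 5, 12 and 11 with only probes above background in at least 1 group, and 3, 12 and 8 with normexp and quantile normalization. With only probes above background in at least 1 group, 28 members were fitted. Lower calls over all probes in Day 4:Control, which numbered 39, rose in these fits too. They came to 136 at the 75th percentile, 99 without the slide, 301 with the variance trend, 342 with that filter and 143 with normexp. In the same order, those in Day 2:Control went from 40 to 219, 128, 300, 245 and 117. Those in Day 4:Day 2 went from 6 to 222, 110, 454, 509 and 189. Whether members rose by more than other probes was not tested. Both changes chosen after seeing the data raised the member counts. Those came to 5, 14 and 12 without the slide at the 75th percentile and to 9 in Day 4:Control with the RefSeq-matched probes. Without the slide at the 75th percentile, lower calls over all probes came to 268, 239 and 399. With the 6 arrays of the comparison alone the Day 4:Control count was 0, and 16 of all probes were called lower. With the methods' paired t-test after Benjamini-Hochberg the counts were 2, 0 and 0. That test called 48 of all probes lower in Day 2:Control. In Day 4:Control and Day 4:Day 2 it called 0 of all probes, so its counts of 0 there say nothing about the members. With the replicate block in place of the slide the member counts were 0, 4 and 0, with the same 4 genes. Leaving out each array of the comparison in turn gave 0 to 0, 0 to 5 and 0 to 0, and medians of -0.27 to 0.088, -0.069 to 0.166 and -0.023 to 0.33. Over all probes, lower calls in these fits numbered 3 to 13, 3 to 51 and 0 to 5. The median over the members was -0.44 in Day 4:Control and -0.31 in Day 4:Day 2 over measured probes alone, and -0.036 in Day 4:Day 2 with normexp. The share of all significantly regulated probes that was higher in Day 4:Control was 35.0% as reported, 53.6% at the 75th percentile, 45.4% with normexp and 66.8% without the slide, and the median of all probes there was 0.29, 0.193, -0.004 and 0.365 in the same order. The causes of these shifts were not tested. Apart from leaving out single arrays, each of the 4 probes of Day 4:Control passed in 6 of 8 alternatives. Over these and the fits without 1 Control or Day 4 array, their adjusted P-values reached 0.509 to 0.56. The 4 did not pass with the 6 arrays alone or with the paired t-test, which called 0 probes in Day 4:Control. Signal over background limits the 26 members read on no array, for which no change could be measured.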
